A study of Homo sapiens with 9 samples.

Results

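The genes described here are the subunits of the transcription factor NF-kB and a set of its inhibitors and regulators, most of which its own activity induces. They were taken from the deposited expression table by gene symbol, which found 10 genes of the 45754 in the table: the subunits NFKB1, NFKB2, REL, RELA and RELB, the inhibitors of the IkB family NFKBIA, NFKBIB and NFKBIE, and the ubiquitin-editing and ubiquitin-ligating regulators TNFAIP3 and BIRC3. RNA sequencing had been done on 9 libraries of a human lung cancer line labelled H441, with 3 libraries per group. Cells had received 0.1% DMSO as solvent control, 10 µM of the compound BSGL or 10 µM of the compound RSGL, in each case for 24 h. Each group is 1 cell line without a genetic change named in the cell line tag, but a genotype tag names H460 in control and BSGL and A549 in RSGL, so the labels disagree on the cells.

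NF-kB is a dimer of Rel-family proteins that waits in the cytoplasm bound to an IkB protein. In the canonical branch, TNF, interleukin-1 or Toll-like receptors lead through the IKK kinase to destruction of IkB alpha, the product of NFKBIA, which frees dimers of RELA or REL with the p50 product of NFKB1. In the non-canonical branch, receptors such as CD40, LTBR and RANK stabilise the kinase NIK, the p100 product of NFKB2 is cut to p52, and p52 enters the nucleus with RELB. NFKBIA, NFKBIE, TNFAIP3, BIRC3, NFKB1, NFKB2, REL and RELB are all known targets of NF-kB itself, and their transcripts are therefore often read as a gauge of the pathway; here transcripts alone were measured, not protein or nuclear entry.

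Most of the members that could be searched share a feature of their start regions. RefSeq start regions (GRCh38.p14) were found for 8 of the 10 genes, in 13 windows of 250 bases before a start, since some genes have several starts. The kappa B motif, the sequence that NF-kB dimers bind, was searched on both strands by its usual degenerate consensus, and matched in 7 of the 8 genes, against 11.8% of the 27305 genes with a window. A stricter form, GGGA and TTCC with any 2 bases between them, matched in 6 of the 8 genes, against 1.73%, and every strict match is also a match of the looser motif. The AP-1 motif TGANTCA, searched for comparison, matched in 1 of the 8 genes, against 8.06%. RELA had no kappa B match in its windows, and RELB and NFKBIE were not among the windows. A match describes letters only, and most of the genes were known NF-kB targets when they were chosen, so matches were partly built into the choice. The members also had more windows per gene, 13 in 8 genes, than all genes, with 35116 in 27305.

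The start regions of NFKBIA and BIRC3 are shown because both genes hold kappa B matches and both fell under RSGL. Bases are 5′ to 3′ on the gene's strand, kappa B matches are in capitals, and the runs stop before the gene body and any GENCODE v29 exon.
NFKBIA, chr14:35404755-35404999, minus strand: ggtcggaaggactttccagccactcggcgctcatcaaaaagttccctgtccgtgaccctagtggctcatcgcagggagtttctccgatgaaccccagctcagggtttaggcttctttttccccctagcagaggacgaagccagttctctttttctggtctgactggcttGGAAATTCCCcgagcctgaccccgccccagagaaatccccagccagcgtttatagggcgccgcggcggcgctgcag
BIRC3, chr11:102317234-102317449, plus strand: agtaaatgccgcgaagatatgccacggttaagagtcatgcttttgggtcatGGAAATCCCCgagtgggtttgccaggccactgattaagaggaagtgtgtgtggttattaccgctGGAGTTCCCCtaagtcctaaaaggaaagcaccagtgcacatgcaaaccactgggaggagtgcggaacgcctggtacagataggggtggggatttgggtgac

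Short stretches around the matches of other members are shown because these genes did not move in 1 direction: TNFAIP3 and NFKB2 rose under RSGL and REL fell, while NFKB1 did not pass the test. In TNFAIP3 the 2 matches lie 67 to 46 bases before the start, and in NFKBIA the single match lies 81 to 72 bases before it. The stretches of TNFAIP3, REL and NFKB2 lie inside the gene bodies of the deposited table, and that of NFKB1 in an exon of the neighbouring transcript AF213884.3.
TNFAIP3, chr6:137867188-137867217, plus strand: ctttGGAAAGTCCCgtGGAAATCCCCgggc
NFKB2, first of 2 starts with matches, chr10:102394462-102394490, plus strand: aaacgtcatGGGAATTCCCCcctccgggg
NFKB2, second start with matches, chr10:102395675-102395702, plus strand: ggtattttcGGGACTTTCCtaagctgct
REL, chr2:60881518-60881546, plus strand: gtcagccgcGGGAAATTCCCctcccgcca
NFKB1, chr4:102501301-102501328, plus strand: gacgtcagtGGGAATTTCCagccaggaa

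The libraries held 16720414 to 18738947 fragments in genes, and 12213 to 12338 genes per library reached 1 FPKM (a fragment count divided by gene length and by library size). Of 9 marker genes of the lung lineage of H441, 0 passed the filter used below, and the highest single value among them was 1.24 FPKM. A second list held 12 genes that KEAP1-mutant lung lines, A549 and H460 among them, express strongly, and 11 passed. The list summed to 4206 to 4309 FPKM in control, 3925 to 4017 under BSGL and 2303 to 2373 under RSGL. ALDH1A1 led that sum, with means of 1961 FPKM in control and 762 under RSGL. TXNRD1 (430 to 468 FPKM) and AKR1C1 (30.5 to 34.0 FPKM) were higher under RSGL than in control, and the other listed genes had lower means. The number of genes at 5 FPKM or more in every library of 1 group and at 0.1 FPKM or less in every library of another was 0 between RSGL and control and 0 between BSGL and control. Immune cells also express NF-kB genes at high levels: of 8 lymphocyte markers 0 passed, their summed level was at most 0.963 FPKM in any library, and CD3D and CD3E were at 0 throughout. Of 8 macrophage markers 2 passed, and their sum, 42.2 to 42.7 FPKM in control, 46.6 to 47.8 under BSGL and 117 to 121 under RSGL, was nearly all CD68, a lysosomal protein that epithelial cells also make, while AIF1 and TYROBP were at 0. CD14, the other macrophage marker that passed, fell from a mean of 2.11 FPKM in control to 0.346 under RSGL. Fibroblast markers passed in 3 of 8 cases and summed to 9.93 to 11.3 FPKM in control and 7.91 to 8.16 under RSGL, and 0 of 7 endothelial markers passed. Epithelial markers passed in 5 of 6 cases and summed to 1716 to 1758 FPKM in control, 1727 to 1781 under BSGL and 1278 to 1304 under RSGL. Of those that passed, KRT19 rose from a mean of 2.05 FPKM in control to 4.07 under RSGL, and the others fell. The part of these shifts in the results below was not tested, and in bulk RNA a smaller share of cells with a transcript and less of it per cell cannot be told apart.

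In solvent-treated cells all members but NFKBIB were read at 200 fragments or more in every library. Per length, NFKBIA was the most abundant, at 41.1, 42.3 and 46.2 FPKM, followed by RELA at 32.4 ± 1.53 and NFKB2 at 27.6 ± 0.766 FPKM (SD, n = 3). BIRC3 stood at 13.6 ± 0.374, RELB at 11.02 ± 0.762, NFKB1 at 7.67 ± 0.584, TNFAIP3 at 6.77 ± 0.225, NFKBIE at 5.37 ± 0.156 and REL at 1.74 ± 0.0312 FPKM. The 3 control values of each of these genes lay above all 3 values of the next, although NFKB1 and TNFAIP3 were separated only by 7.07 against 6.95 FPKM. REL, best known from lymphocytes, was the least abundant subunit, and RELA together with NFKB2 made up most of the subunit transcripts.

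**Figure D1:**
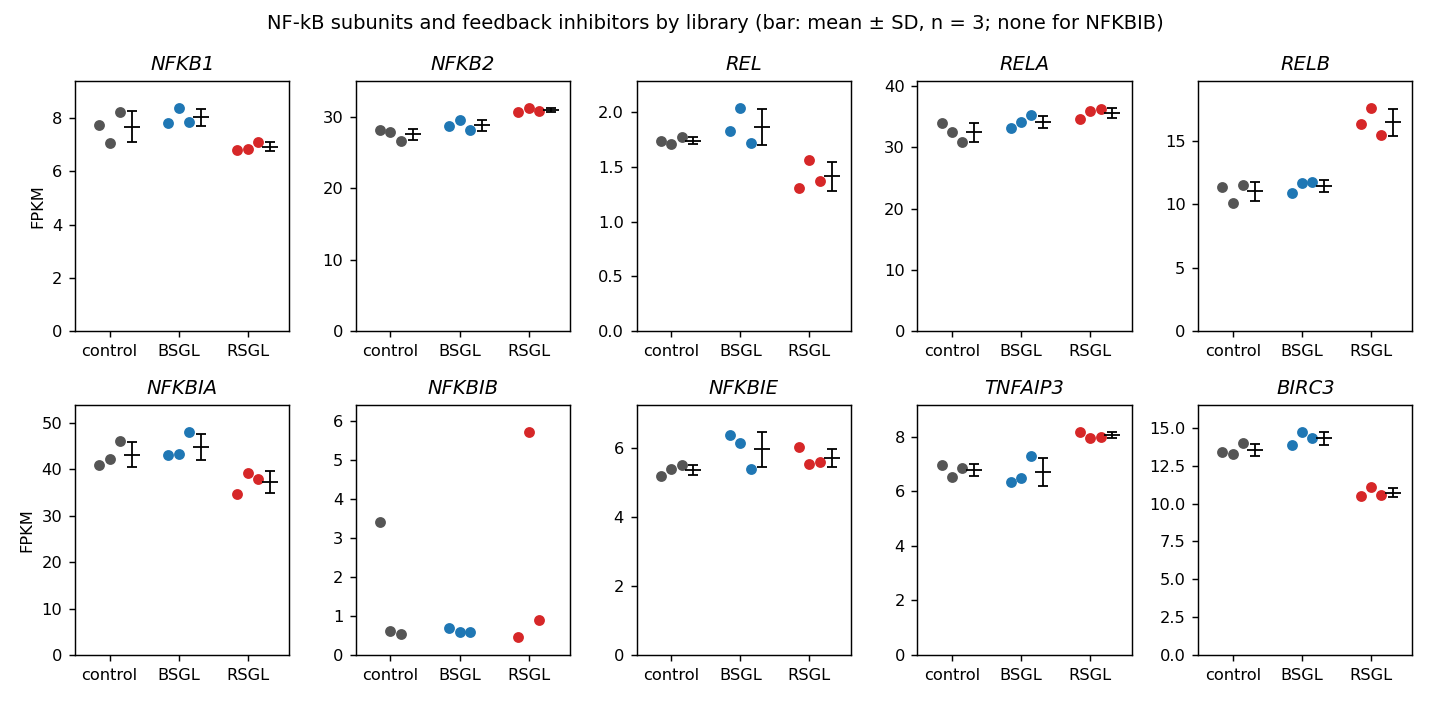
FPKM of each of the 10 genes (vertical axis, from 0) in the 3 libraries of each group (points), with the mean and SD beside them except for NFKBIB. The RSGL points of RELB, at 15.5 to 17.6 FPKM, lie above all others and those of BIRC3, at 10.5 to 11.1 FPKM, below all others, while the NFKBIB points scatter within groups.

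The comparison of RSGL with control asks how the pathway's own components differed under this compound. Calls in both directions were found among the subunits and among the inhibitors and regulators. If the genotype tag holds, the cell line differs between RSGL and control as well, and compound and line cannot then be told apart. Among the subunits RELB, NFKB2 and RELA rose and REL fell, and among the inhibitors and regulators TNFAIP3 rose while NFKBIA and BIRC3 fell. The lower call among the subunits rests on REL alone. Its call was lost in 9 of 20 alternative settings, and that of RELA in 5. All changes were below 2-fold, RELB being the largest. Values were compared as log2(FPKM + 1) with limma across all 12775 genes that reached 1 FPKM in at least 3 libraries, and p-values were adjusted over these genes by the Benjamini-Hochberg method. Of the 9 members that passed the filter 7 were called, 4 higher and 3 lower, where 54.8% of all tested genes were called, 27.2% higher and 27.6% lower. In 8 of the 9 the values of both groups did not overlap, as in 61.2% of all genes. With values scaled to a common FPKM sum the split was 2 higher and 4 lower. With so large a share of all genes called, the number of members called is no result about NF-kB, and the values of the single genes carry the description. Nothing in the labels says that the replicates came from separate cultures, and p-values then reflect only how far these samples spread, and that spread may be technical.

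RELB, the subunit that pairs with p52, lies on chromosome 19 at 45001449 to 45038198. It was read at 11.4, 10.1 and 11.6 FPKM in control and at 16.3, 17.6 and 15.5 FPKM under RSGL. Every RSGL library exceeded every control library by a wide margin. The ratio of means was 1.49, and the log2 change was 0.54 (95% interval 0.40 to 0.67, adjusted p = 4.35e-05 by limma), a change exceeded in size by 14.5% of the genes tested. NFKB2, whose p100 product is both a precursor of p52 and an inhibitor of RELB, lies on chromosome 10 at 102394110 to 102402529. It was at 28.2, 27.8 and 26.7 FPKM in control and at 30.7, 31.3 and 30.8 FPKM under RSGL, a rise of 12.3% with no overlap of the groups (log2 0.16, interval 0.09 to 0.24, adjusted p = 0.00244 by limma). NFKB2 thus rose with its partner RELB, but by less. The call of NFKB2 was lost in 1 of 20 alternative settings, that with a common FPKM sum (adjusted p = 0.0549 by limma).

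RELA, the main activating subunit of the canonical branch, lies on chromosome 11 at 65653596 to 65662972. It was at 33.9, 32.5 and 30.8 FPKM in control and at 34.7, 36.0 and 36.2 FPKM under RSGL. The groups did not overlap but came within 1 FPKM of each other, and the log2 change was 0.13 (interval 0.04 to 0.22, adjusted p = 0.0207 by limma). This call is weak: without control replicate 3 the adjusted p was 0.0717, without RSGL replicate 2 it was 0.0595 and without RSGL replicate 3 it was 0.0592. With a common FPKM sum the change was 0.10 (adjusted p = 0.176), and with no filter on low values the adjusted p was 0.0514.

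REL, on chromosome 2 at 60881495 to 60928171, encodes c-Rel. It was at 1.73, 1.71 and 1.77 FPKM in control and at 1.31, 1.56 and 1.37 FPKM under RSGL. All 3 RSGL values were lower, and the ratio of means was 0.814 (log2 -0.18, interval -0.34 to -0.03, adjusted p = 0.0437 by limma). REL rests on 200 to 303 fragments per library, for which counting error alone gives an SD of 5.74 to 7.07%. Its call was lost in 9 of 20 alternative settings, and on leaving out single libraries the adjusted p reached 0.133, without RSGL replicate 1. It was also lost without control replicate 1, 2 or 3, BSGL replicate 1 or RSGL replicate 3, at adjusted p-values from 0.0594 to 0.101. With the replicate number as a block the adjusted p was 0.0561. NFKB1, on chromosome 4 at 102501329 to 102617302, encodes p105 and its product p50. It was at 7.72, 7.07 and 8.23 FPKM in control and at 6.80, 6.84 and 7.11 FPKM under RSGL, so that the ranges overlapped slightly (log2 -0.13, interval -0.25 to -0.01, adjusted p = 0.0665 by limma). It did not pass here, but passed with quantile normalization (adjusted p = 0.0456), with a common FPKM sum (adjusted p = 0.0278) and without control replicate 2 (adjusted p = 0.0175).

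Among the inhibitors and regulators, BIRC3 fell most. It encodes cIAP2, a ubiquitin ligase that acts at TNF receptors and, with cIAP1, marks NIK for destruction, and it lies on chromosome 11 at 102317450 to 102339403. The gene was at 13.4, 13.3 and 14.0 FPKM in control and at 10.5, 11.1 and 10.6 FPKM under RSGL, a decrease to 0.792 of the control mean. The 2 groups were more than 2 FPKM apart, and the log2 change was -0.31 (interval -0.40 to -0.22, adjusted p = 9.6e-05 by limma). NFKBIA, which encodes IkB alpha, lies on chromosome 14 at 35401510 to 35404754. It was at 41.1, 42.3 and 46.2 FPKM in control and at 34.8, 39.2 and 38.0 FPKM under RSGL. The highest RSGL value stayed below the lowest control value, and the log2 change was -0.21 (interval -0.34 to -0.07, adjusted p = 0.018 by limma). The call was lost without control replicate 3 (adjusted p = 0.0618), without RSGL replicate 1 (adjusted p = 0.0665) and with no filter (adjusted p = 0.0555).

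TNFAIP3 moved the other way. It encodes A20, which edits ubiquitin chains upstream of IKK and shuts the canonical branch, and it lies on chromosome 6 at 137866317 to 137883314. The gene was at 6.95, 6.52 and 6.84 FPKM in control and at 8.18, 7.96 and 7.997 FPKM under RSGL, a rise of 18.9% with the groups a full FPKM apart (log2 0.22, interval 0.10 to 0.34, adjusted p = 0.00529 by limma). NFKBIE, which encodes IkB epsilon, lies on chromosome 6 at 44258166 to 44265788. It was at 5.20, 5.41 and 5.50 FPKM in control and at 6.02, 5.55 and 5.60 FPKM under RSGL. The groups were barely apart, and the change was not called (log2 0.08, interval -0.06 to 0.21, adjusted p = 0.298 by limma). NFKBIA and TNFAIP3, the inhibitors most used as readouts of NF-kB activity, thus changed in opposite directions in the same libraries.

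The calls of RELB, BIRC3 and TNFAIP3 against control held in all 20 alternative settings. No gene overlaps RELB, NFKB2, RELA, REL, NFKBIA, NFKBIE or BIRC3 in the table. On the opposite strand, TNFAIP3 overlaps a long noncoding RNA read at 0.11 to 0.33 FPKM and NFKB1 overlaps 2, the higher at 1.06 to 2.37 FPKM. NFKBIB, described below, overlaps the protein-coding gene SIRT2 on the opposite strand, read at 0.126 to 3.97 FPKM. Whether reads were counted by strand is not stated, so the levels of NFKB1 and NFKBIB may include reads of these genes. Overlap was judged by whole gene bodies, not exons, and the amount was not tested.

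**Figure D2:**
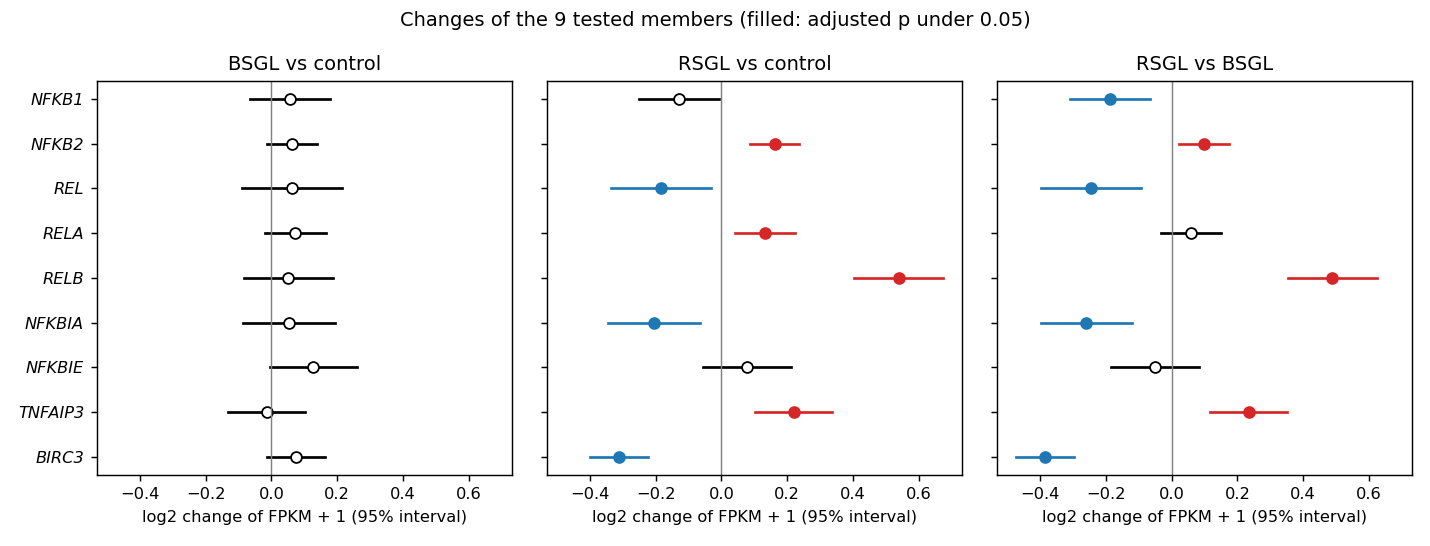
Log2 change of FPKM + 1 (horizontal axis) with its 95% interval for the 9 tested members in each of the 3 comparisons; filled points passed the test, red higher and blue lower. No point is filled for BSGL against control, whereas 7 are filled in each comparison with RSGL, with RELB farthest to the right and BIRC3 farthest to the left.

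The comparison of BSGL with control gave no change of a member that passed. Of the 9 tested members 0 were called by limma, 0 had an unadjusted p under 0.05, and 0 had libraries apart from control, where 0.0861% of all genes were called (0.047% higher and 0.0391% lower), 857 of 12775 genes had an unadjusted p under 0.05 and 12.8% of genes had libraries apart. Limma-voom on fragments recovered from the table also called 0 members. RELB was at 10.9, 11.7 and 11.7 FPKM under BSGL, inside or just above the control range, with a log2 change of 0.05 (interval -0.08 to 0.19). NFKBIA was at 43.0, 43.3 and 48.2 FPKM (log2 0.05, interval -0.09 to 0.19) and BIRC3 at 13.9, 14.8 and 14.3 FPKM (log2 0.07, interval -0.01 to 0.16). TNFAIP3 was at 6.33, 6.49 and 7.29 FPKM (log2 -0.01, interval -0.13 to 0.10).

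The largest change under BSGL was that of NFKBIE, at 6.38, 6.14 and 5.39 FPKM (log2 0.13, interval -0.01 to 0.26, adjusted p = 0.769 by limma). One BSGL library of NFKBIE lay inside the control range and the other 2 above it. NFKB2 (log2 0.06), RELA (0.07), REL (0.06) and NFKB1 (0.06) had means above control by less than the spread of their libraries allows to call. Over the members the intervals of log2(FPKM + 1) ran from -0.13 to 0.26, so that changes beyond that size on this scale were outside the 95% interval of every tested member. That is a bound on the change on this scale, which understates changes of low genes such as REL. It does not show that the levels were equal.

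RSGL and BSGL were also set against each other, at the same dose and time, although the genotype tag names different lines for them too. The 3 comparisons share libraries and are not independent of each other. Of the 9 members 7 were called, 3 higher and 4 lower under RSGL, where 54% of all genes were called, and 7 had libraries apart, where 61.2% of all genes had. RELB was higher under RSGL than under BSGL by 0.49 on the log2 scale (interval 0.35 to 0.62, adjusted p = 9.15e-05 by limma), TNFAIP3 by 0.23 (interval 0.12 to 0.35, adjusted p = 0.00384) and NFKB2 by 0.10 (interval 0.02 to 0.17, adjusted p = 0.0305). BIRC3 was lower by 0.39 (log2 -0.39, interval -0.47 to -0.30, adjusted p = 2.38e-05 by limma), as was NFKBIA (-0.26, interval -0.40 to -0.12, adjusted p = 0.00571). REL (-0.25, interval -0.40 to -0.09, adjusted p = 0.012) and NFKB1 (-0.19, interval -0.31 to -0.07, adjusted p = 0.0149) were lower too.

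NFKB1, which missed the threshold against control, thus differed between the compounds, with BSGL at 7.81, 8.38 and 7.86 FPKM against 6.80, 6.84 and 7.11 FPKM under RSGL. Its call was lost without BSGL replicate 2 (adjusted p = 0.0572). The call of NFKB2 was lost in 7 of 20 settings, among them those without BSGL replicate 1 (adjusted p = 0.0725), BSGL replicate 3 (0.107), RSGL replicate 1 (0.0533), RSGL replicate 2 (0.0852) and RSGL replicate 3 (0.0523). RELA (log2 0.06, interval -0.03 to 0.15) and NFKBIE (-0.05, interval -0.18 to 0.08) did not differ beyond their error. For these 2 genes a difference between compounds larger than those bounds, on the log2(FPKM + 1) scale, lay outside the 95% interval.

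The subunits were also compared as shares of a pool. Taking the 5 subunits as a pool of FPKM, RELB made up 12.8 to 14.6% in control, 13.2 to 13.9% under BSGL and 17.0 to 18.9% under RSGL. The share of NFKB1 was 8.91 to 10.4% in control and 7.33 to 7.81% under RSGL, and that of REL was 2.09 to 2.24% in control and 1.46 to 1.68% under RSGL. NFKB2 held 33.8 to 35.1% and 33.5 to 34.2%, and RELA 39.0 to 41.0% and 38.6 to 39.8%, with overlap. The pool as a whole was 80.4 ± 2.11 FPKM in control, 84.3 ± 1.64 under BSGL and 91.3 ± 1.76 under RSGL (SD, n = 3), with the RSGL libraries above all others. For RELB, NFKB1, REL and the pool, the exact two-sided permutation test gave p = 0.1 between RSGL and control, which is the smallest that 3 libraries against 3 can give. NFKBIA per RELA transcript, a ratio of inhibitor to the subunit it holds, was 1.21 to 1.497 in control, 1.27 to 1.37 under BSGL and 1.00 to 1.09 under RSGL (RSGL against control, exact permutation p = 0.1).

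NFKBIB, which encodes IkB beta, could not be compared. Its values were 3.41, 0.625 and 0.538 FPKM in control, 0.683, 0.593 and 0.582 FPKM under BSGL and 0.464, 5.73 and 0.885 FPKM under RSGL. Control replicate 1 and RSGL replicate 2 stood far above the other 7 libraries, at 321 and 501 fragments against 45 to 79, and the gene failed the filter because only those 2 libraries reached 1 FPKM. RefSeq places NFKBIB on chromosome 19 at 38899666 to 38908889, but the deposited table places its row on a scaffold outside the chromosomes that holds 19 genes of the table. With no filter, the log2 change was 0.25 for RSGL against control (interval -1.11 to 1.61) and -0.46 for BSGL against control (interval -1.82 to 0.90).

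Other genes of the same scaffold scattered in the same manner. ECH1, an enzyme of fatty acid oxidation, ranged from 0.948 to 50.9 FPKM within control, from 0.913 to 55.4 within BSGL and from 2.63 to 95.3 within RSGL. MRPS12, a mitochondrial ribosomal protein, was at 0.628, 21.8 and 0.457 FPKM in control. EIF3K, a translation initiation factor, was at 22.2, 142.8 and 19.4 FPKM under BSGL, but at 18.6 to 21.4 FPKM in control. The libraries that stood high differed from gene to gene. FBXO17, HNRNPL, ECH1, MRPS12 and EIF3K were chosen after their values were seen. Among genes with a mean from 0.5 to 5 FPKM, the SD between libraries of a group on the log2(FPKM + 1) scale had a median of 0.101 for 6247 genes on chromosomes and of 0.254 for 279 genes on scaffolds, against 0.842 for NFKBIB. An SD at least that of NFKBIB was found in 0.688% of the former and in 10.8% of the latter. The cause of this scatter was not tested. The other 9 members lie on chromosomes.

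**Figure D3:**
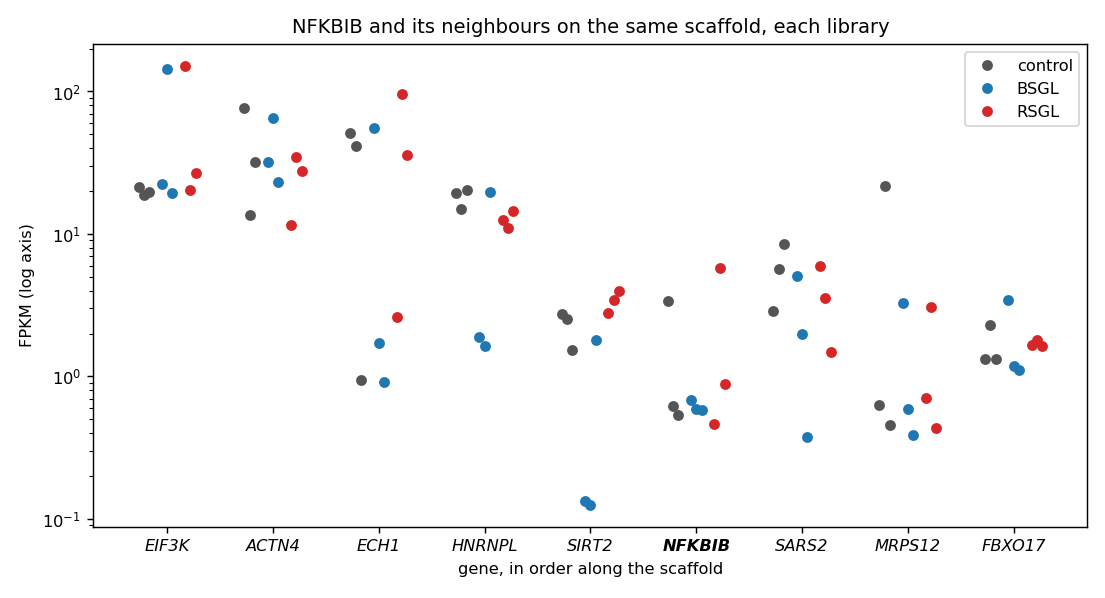
FPKM on a log axis of NFKBIB and the 8 other genes of its scaffold that reached 1 FPKM in any library, in order along the scaffold, with 1 point per library coloured by group. Libraries of 1 group differ by over 10-fold in ECH1 and MRPS12 in the same way as in NFKBIB, where 2 libraries stand apart from the other 7.

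The rest of the pathway was described from 6 lists by role, 124 genes in all, of which 98 passed the filter. Under RSGL 63 of the 98 were called, 40 higher and 23 lower, where 54.8% of all genes were called. Without 4 genes that were under 1 FPKM in every library of control or of RSGL, 59 of 94 were called, a count added after seeing the data. Under BSGL 0 of the 98 were called by limma, where 0.0861% of all genes were, and 12 (12.2%) had an unadjusted p under 0.05, where 6.71% of all genes had. Of these 12 genes 10 were among the targets. Of the 124 genes 9, namely TNF, LTA, LTB, TNFRSF14, RNF31, CCL5, IER3, TAP1 and PSMB9, were placed on scaffolds, and of these RNF31 and CCL5 passed the filter. CCL5 ranged so widely within groups (SD 15.5 FPKM under RSGL at a mean of 11.7) that no change could be read. IKBKG, the regulatory subunit of IKK, has a near-identical pseudogene, and its values (9.78 ± 4.50 FPKM in control) are uncertain.

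Of 12 ligands 2 passed the filter, and TNF, LTA and LTB, which did not, lie on scaffolds. IL18, an interleukin-1 family cytokine, fell from 37.9 ± 1.59 to 29.9 ± 1.72 FPKM under RSGL (SD, n = 3; log2 -0.33, adjusted p = 0.022 by limma). That call was lost without control replicate 2 or 3 or RSGL replicate 1 or 2, at adjusted p-values from 0.0543 to 0.0754. Of 12 receptors that passed, 8 rose and 3 fell, 91.7% against 54.8% of all genes, with a median log2 change of 0.34 where that of all genes was -0.0009. TLR4, which senses bacterial lipopolysaccharide, was under 1 FPKM in every control library, so it could pass the filter only by being higher elsewhere; without it 7 of 11 rose and 3 fell, with a median of 0.285. TNFRSF11A, the receptor RANK that feeds both branches, rose from 1.86 ± 0.195 to 6.25 ± 0.449 FPKM, and TNFRSF10B, a death receptor for TRAIL, from 49.7 ± 0.915 to 86.6 ± 1.81 FPKM. IL1R1, the signalling receptor of interleukin-1, fell from 5.68 ± 0.166 to 3.04 ± 0.189 FPKM. TNFRSF1A, the main TNF receptor of epithelial cells, also fell, from 126.8 ± 0.527 to 94.4 ± 0.181 FPKM (adjusted p = 9.43e-06), and is named after its values were seen.

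Of the 27 adaptors and upstream kinases 7 rose and 7 fell, 51.9% against 54.8% of all genes. IRAK2, a kinase of the interleukin-1 and Toll-like receptor complex, rose from 9.29 ± 0.460 to 24.2 ± 0.632 FPKM (log2 1.29, SE 0.0411, adjusted p = 8.55e-09 by limma). RBCK1, a subunit of the linear ubiquitin ligase LUBAC, rose from 27.0 ± 1.44 to 66.0 ± 1.14 FPKM. MALT1, a protease that cleaves TNFAIP3 and RELB proteins in lymphocytes, fell from 7.02 ± 0.0111 to 3.38 ± 0.171 FPKM. Chosen after their values were seen, MAP3K14, which encodes NIK, fell from 18.7 ± 0.642 to 10.7 ± 0.142 FPKM (log2 -0.75, adjusted p = 2.22e-07), and BIRC2, the cIAP1 partner of BIRC3, from 16.6 ± 0.576 to 11.9 ± 0.438 FPKM (log2 -0.44, adjusted p = 1.92e-05). The MAP3K14 transcript fell in the libraries in which RELB and NFKB2 rose, but NIK protein and p100 processing were not measured. Whether these changes are linked was not tested. Of the 5 IKK-type kinases 1 was called: IKBKE fell from 5.89 ± 0.140 to 3.92 ± 0.256 FPKM, while the catalytic subunits stood at 8.86 and 9.58 FPKM (CHUK) and at 9.58 and 9.07 FPKM (IKBKB) in control and under RSGL.

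Of 18 other inhibitors and atypical IkB genes 8 rose and 3 fell, 61.1% against 54.8% of all genes, a split that was 4 and 3 with a common FPKM sum. The 3 that fell had the largest changes of the list. BCL3, a nuclear IkB that works with p50 and p52 dimers, fell from 15.9 ± 1.66 to 5.81 ± 0.253 FPKM (log2 -1.31, SE 0.0671, adjusted p = 1.83e-07 by limma). NFKBIZ, another nuclear IkB, fell from 7.52 ± 0.326 to 4.56 ± 0.406 FPKM, and ZC3H12A, a nuclease that degrades cytokine mRNAs, from 10.1 ± 0.492 to 7.35 ± 0.365 FPKM. Under BSGL, BCL3 was at 13.2 ± 0.322 FPKM and NFKBIZ at 6.24 ± 0.138 FPKM, below every control library, but neither passed (adjusted p = 0.386 and 0.36 by limma). Groups apart in this manner were found between BSGL and control in 12.8% of all genes.

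Known target genes did not move in 1 direction either. Of 34 that passed the filter 17 rose and 8 fell under RSGL, 73.5% against 54.8% of all genes, with a median of 0.23. CSF2 was under 1 FPKM in every control library and CXCL10 and ICAM1 in every RSGL library, so they passed the filter only through the groups in which they were higher; without them 16 of 31 rose and 6 fell, with a median of 0.23. CSF2, the cytokine GM-CSF, rose from 0.749 ± 0.0868 to 4.97 ± 0.322 FPKM and PTX3, a secreted pattern-recognition protein, from 1.87 ± 0.167 to 6.28 ± 0.525 FPKM. CXCL1, a neutrophil-attracting chemokine, fell from 85.1 ± 2.66 to 25.2 ± 2.27 FPKM (log2 -1.72, SE 0.079, adjusted p = 1.73e-07 by limma). Under BSGL, CSF2 was at 1.28 ± 0.230 FPKM and PTX3 at 2.39 ± 0.187 FPKM, above every control library, but neither passed (adjusted p = 0.3 and 0.489 by limma), and CSF2 was not tested where 1 FPKM was asked in all 9 libraries. Counts of the receptors and targets were within 2 genes of these under each of 3 other scalings.

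**Figure D4:**
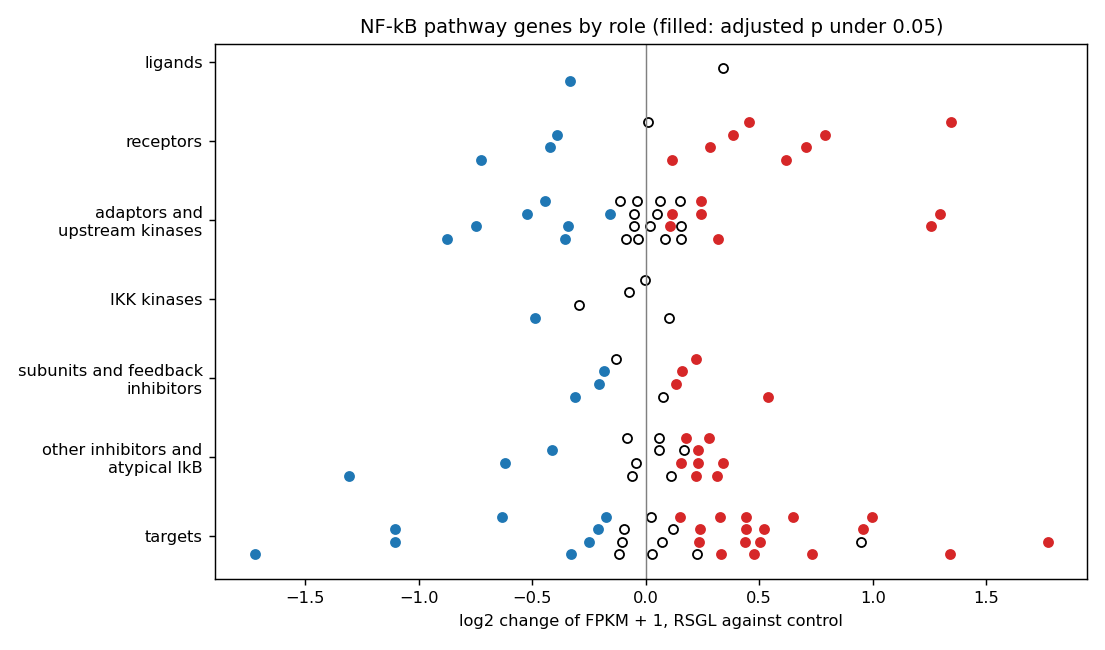
Log2 change of FPKM + 1 for RSGL against control (horizontal axis) of each tested gene, in rows by role; filled points passed the test, red higher and blue lower. The subunits and feedback inhibitors span -0.31 to 0.54, a narrower range than the receptors, adaptors, other inhibitors and targets, whose extremes are CSF2 at 1.77, which passed the filter only through groups in which it was higher, and CXCL1 at -1.72. Those lists hold more tested genes, and a range widens with their number. The median absolute log2 change was 0.183 for the members, 0.154 for adaptors and 0.199 for other inhibitors. It was 0.386 for targets, 0.439 for receptors and 0.207 for all genes.

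Of the members, BIRC3 had the smallest p in limma's F test over all groups (adjusted p = 4.47e-05). The protein-coding genes with the most similar profile over the 9 libraries were CHAF1A (r = 0.991), a subunit of the chromatin assembly factor that acts at replication, RMI2 (r = 0.990), of a complex that resolves recombination intermediates, and ATP5A1 (r = 0.990), a subunit of mitochondrial ATP synthase. CHAF1A was at 14.5, 15.4 and 9.52 FPKM in control, BSGL and RSGL, the same order as BIRC3. The 9 libraries fall into 1 group apart and 2 groups close together, and r was at least 0.95 for 685 of 10908 genes, so the ranking describes that split.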

How the data were processed

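FPKM was computed by the authors for each of 9 libraries, per the file headers, beside gene lengths and positions whose sequence versions are those of GRCh38. Tools named in the submitters' processing notes, with no role given, are DESeq2 1.16.1, featureCounts 1.5.0-p3 and HISAT2 2.0.5. FPKM times gene length was within 0.01 of a whole multiple of 1 step per library in 100% of values under 300 fragments, so fragments could be recovered; counting errors cover counting only. Group means of log2(FPKM + 1) over all 9 libraries were fitted with limma 3.58.1 (R 4.3.3, statmod 1.5.0; trend and robust), for 12775 genes with at least 1 FPKM in 3 libraries, and called at adjusted p under 0.05. The pseudocount understates changes of low genes. The pipeline was tested on simulated data in which few genes changed and scaling did not differ between libraries. That test therefore does not bear on how scaling affects the calls here. Members, gene lists and tests were chosen with earlier results of these data known. Named genes are all members, per list up to 3 called genes with the largest change under RSGL, any list gene called under BSGL, and the 3 protein-coding genes most correlated with the member of smallest F test p. Alternatives changed pseudocount, filter, scaling, model, block and libraries. Sequences are RefSeq's, build GRCh38.p14.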

Additional observations from a re-analysis of the deposited data

How the results depend on the processing

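With RSGL against control, 7 members were called, 4 with no filter and 4 to 7 on leaving out 1 library (4 without control replicate 3). Against BSGL the range on leaving out 1 library was 6 to 7, and with BSGL against control 0 throughout. The 11 genes called for BSGL over all genes were 0 with no filter, a common FPKM sum, no trend and robust options or the replicate block, 2 with only the compared groups, 29 with limma-voom, and 0 to 8 on leaving out 1 library; the cause was not tested. On leaving out 1 library, the log2 change under BSGL ran from -0.0024 (without control replicate 2) to 0.0835 for RELB and from -0.0684 to 0.0208 for TNFAIP3, whose sign turned without control replicate 1 (0.0029), BSGL replicate 1 or BSGL replicate 2 (0.005); none was called. Same-numbered libraries correlated at -0.21 to 0.12 after removing group means, so the numbers do not pair them; with the replicate block 6 members were called against control and 7 against BSGL, and 6792 and 6696 genes in all. Leaving out genes on scaffolds, chosen after seeing the data, kept the member counts at 7, 0 and 7. Depth limits NFKBIB most, at 45 to 79 fragments in 7 libraries, and among the tested members REL and NFKBIE, at 200 to 330 fragments.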
